A study of Mus musculus with 6 samples.

Results

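The cytosolic heat shock proteins were followed as 8 genes, taken by symbol from a table of 54532 genes in cells sorted from mouse fetal liver at embryonic day 18 (E18) and embryonic day 16 (E16). The members were Hspa1a, Hspa1b, Hsph1, Dnajb1, Hspb1, Hsp90aa1, Hspa8 and Hsp90ab1. All 8 passed the filter on low values, which 17824 genes passed. Of the 8 members, 6 were treated as heat-inducible (Hspa1a, Hspa1b, Hsph1, Dnajb1, Hspb1 and Hsp90aa1) and 2 as constitutive (Hspa8 and Hsp90ab1). There were 3 libraries of E18 and 3 of E16, lettered A, B and C on each day. Every library came from CD-1 mice of the genotype Sm22-Cre/ROSA26RYFP, in which Cre driven by the Sm22 (Tagln) promoter switches on an eYFP reporter. Livers were taken apart with collagenase IV and Dispase, and eYFP-positive cells were collected by flow sorting. The eYFP mark is permanent once Cre has acted, so it records past as well as present Sm22 promoter activity, and no library of eYFP-negative or unsorted cells was analysed here. The labels call the cells mesenchyme. They give no litter, animal or pool for the lettered libraries, and p-values therefore reflect variation among libraries that could be technical in part.

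Heat shock proteins are chaperones that hold, fold or hand on other proteins. Hsp70 proteins bind exposed stretches of client proteins in a cycle driven by ATP, J-domain proteins deliver clients and start that cycle, nucleotide exchange factors of the Hsp110 family reset it, and Hsp90 acts later on a narrower set of clients. Some of these genes are transcribed strongly in all cells, while others are switched on when heat shock factor 1 (Hsf1) binds heat shock elements, inverted repeats of the unit GAA, near their start sites. Late fetal liver holds dividing erythroid precursors and maturing hepatocytes beside its mesenchyme.

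The promoters of 4 inducible members are shown because they hold matches to the heat shock element, in arrangements that differ from gene to gene. Sequences are the RefSeq windows on GRCm38.p6, 250 bases before to 50 bases after the annotated start, written 5′ to 3′ on the gene's strand, with matches to GAANNTTC, TTCNNGAA or GAANNTTCNNGAA on either strand in capitals. The windows are chr17:34972107-34972406 (minus strand) for Hspa1a, chr17:34959189-34959488 (minus) for Hspa1b, chr5:135887669-135887968 (plus) for Hspb1 and chr5:149636266-149636565 (minus) for the first of the Hsph1 windows.
Hspa1a: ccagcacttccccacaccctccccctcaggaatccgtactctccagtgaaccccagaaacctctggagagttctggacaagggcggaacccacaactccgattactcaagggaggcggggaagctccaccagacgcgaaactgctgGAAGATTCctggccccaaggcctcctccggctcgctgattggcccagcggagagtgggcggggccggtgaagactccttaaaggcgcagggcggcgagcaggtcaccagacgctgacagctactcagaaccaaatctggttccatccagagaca
Hspa1b: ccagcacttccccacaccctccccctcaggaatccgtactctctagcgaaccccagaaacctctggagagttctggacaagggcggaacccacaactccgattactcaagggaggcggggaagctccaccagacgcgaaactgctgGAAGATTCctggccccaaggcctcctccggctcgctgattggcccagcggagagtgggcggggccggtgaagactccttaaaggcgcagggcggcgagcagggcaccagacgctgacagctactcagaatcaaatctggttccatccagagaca
Hspb1: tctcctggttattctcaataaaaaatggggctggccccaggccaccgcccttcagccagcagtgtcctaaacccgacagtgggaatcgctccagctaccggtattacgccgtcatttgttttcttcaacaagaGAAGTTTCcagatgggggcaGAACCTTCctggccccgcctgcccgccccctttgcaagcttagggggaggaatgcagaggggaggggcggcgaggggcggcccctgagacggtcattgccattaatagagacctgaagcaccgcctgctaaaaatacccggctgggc
Hsph1: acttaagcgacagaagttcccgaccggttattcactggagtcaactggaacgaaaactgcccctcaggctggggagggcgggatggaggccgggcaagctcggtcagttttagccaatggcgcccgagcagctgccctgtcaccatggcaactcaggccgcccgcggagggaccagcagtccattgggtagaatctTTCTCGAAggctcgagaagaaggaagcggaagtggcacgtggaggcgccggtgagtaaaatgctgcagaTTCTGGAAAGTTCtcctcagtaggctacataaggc

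The Hspa1a and Hspa1b windows were identical at 296 of 300 positions and differed at 4. Each held 1 GAANNTTC match at -104 to -97, counted from the annotated start, and a CCAAT box on the opposite strand at -67 to -63. The Hspb1 window held 2 GAANNTTC matches, at -117 to -110 and at -97 to -90, and no CCAAT box. In the Hsph1 window a TTCNNGAA match lay at -54 to -47 and the 3-unit form GAANNTTCNNGAA lay downstream of the start, at 16 to 28, where it overlaps a match to each 2-unit form. Dnajb1 had no match to these 3 patterns in either of its RefSeq windows, and its first window held 2 CCAAT boxes. Hsp90aa1, Hspa8 and Hsp90ab1 had no window in the promoter set used here and were not searched. Of 32851 mouse promoter windows of this length, 0.603% held the 3-unit form, 7.86% held GAANNTTC, 8.52% held TTCNNGAA and 37.4% held CCAAT. Either 2-unit form, as searched in the members, occurred in 15.1%. A match describes the letters and does not show that a factor bound there in these cells.

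**Figure D1:**
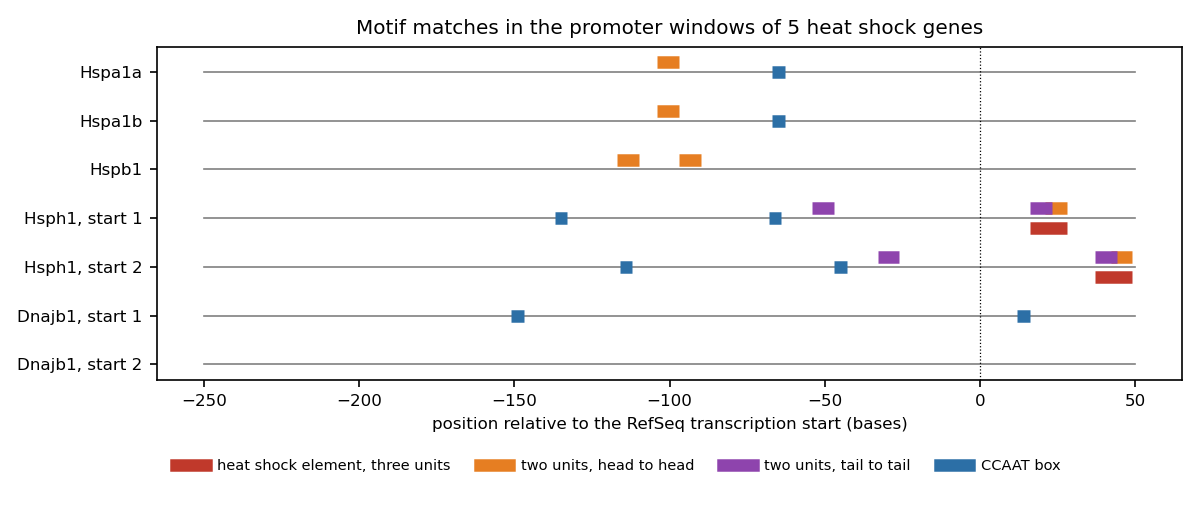
Matches to heat shock element patterns and CCAAT boxes in RefSeq promoter windows of Hspa1a, Hspa1b, Hspb1, Hsph1 and Dnajb1, by distance in bases from the annotated start. The other members had no window to search. The single 2-unit match of Hspa1a and Hspa1b sits at -104 to -97, Hspb1 has 2 matches upstream, and Hsph1 has its 3-unit match downstream of the start.

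Transcripts of several cell types were present, and their sums moved with the days. Erythroid genes (20 of 20 tested) summed to 13534 to 21994 TPM in E18 libraries and 7471 to 9546 TPM in E16 libraries. TPM is a length-normalised transcript level scaled to the same total in every library. Hepatocyte genes (18 of 18 tested) summed to 419 to 1082 TPM at E18 and 2384 to 9801 TPM at E16. The smooth muscle list (10 of 10 tested) summed to 271 to 570 TPM at E18 and 31.0 to 84.1 TPM at E16, and the fibroblast and stellate list (12 of 12 tested) to 2029 to 5404 TPM at E18 and 374 to 729 TPM at E16. Tagln, whose promoter drives the Cre, was at 2.86 to 3.37 TPM at E18 and 0.606 to 1.40 TPM at E16. Endothelial genes passed the filter in 1 of 8 cases, with sums of 18.5 to 26.0 TPM at E18 and 27.7 to 41.3 TPM at E16. The leukocyte gene Ptprc did not exceed 0.0597 TPM at E18 or 0.143 TPM at E16, while macrophage genes (3 of 8 tested, with Lyz2 called higher) summed to 45.7 to 117 TPM at E18 and 42.9 to 57.4 TPM at E16. Of the macrophage list, Adgre1, C1qa, C1qb and C1qc were listed at 0 in all 6 libraries. In these bulk samples, fewer cells of a type and less RNA per cell cannot be told apart, and the part of cell makeup in the results below was not tested.

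No member passed the test between the days. Differences were tested with limma on log2(TPM + 1), which understates the change of low genes, with p-values adjusted by Benjamini-Hochberg over 17824 genes and a call at adjusted p under 0.05. Of the 8 members, 0 were called, against 3.47% of all genes tested (618 genes, 549 higher and 69 lower at E18). Over all genes, the count was 664 without E18 C, 55 without E16 B and 0 without any 1 of E18 A, E18 B, E16 A or E16 C. Of the members, limma's voom on recovered reads called 0 as well, and a fit with estimated library weights called 6. Over all genes those 2 fits called 1465 of 17818 and 4316 of 17824. For 3 of 8 members the values of the days did not overlap (2 higher and 1 lower at E18), against 26.5% of all genes tested. An unadjusted p under 0.05 was found for 3 of 8 members (1 higher and 2 lower at E18), against 20.9% of all genes tested. The median log2 difference, E18 minus E16, was -0.26 over the members and 0.07 over all genes tested. An exact permutation of 3 against 3 libraries cannot give a p below 0.1.

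**Figure D2:**
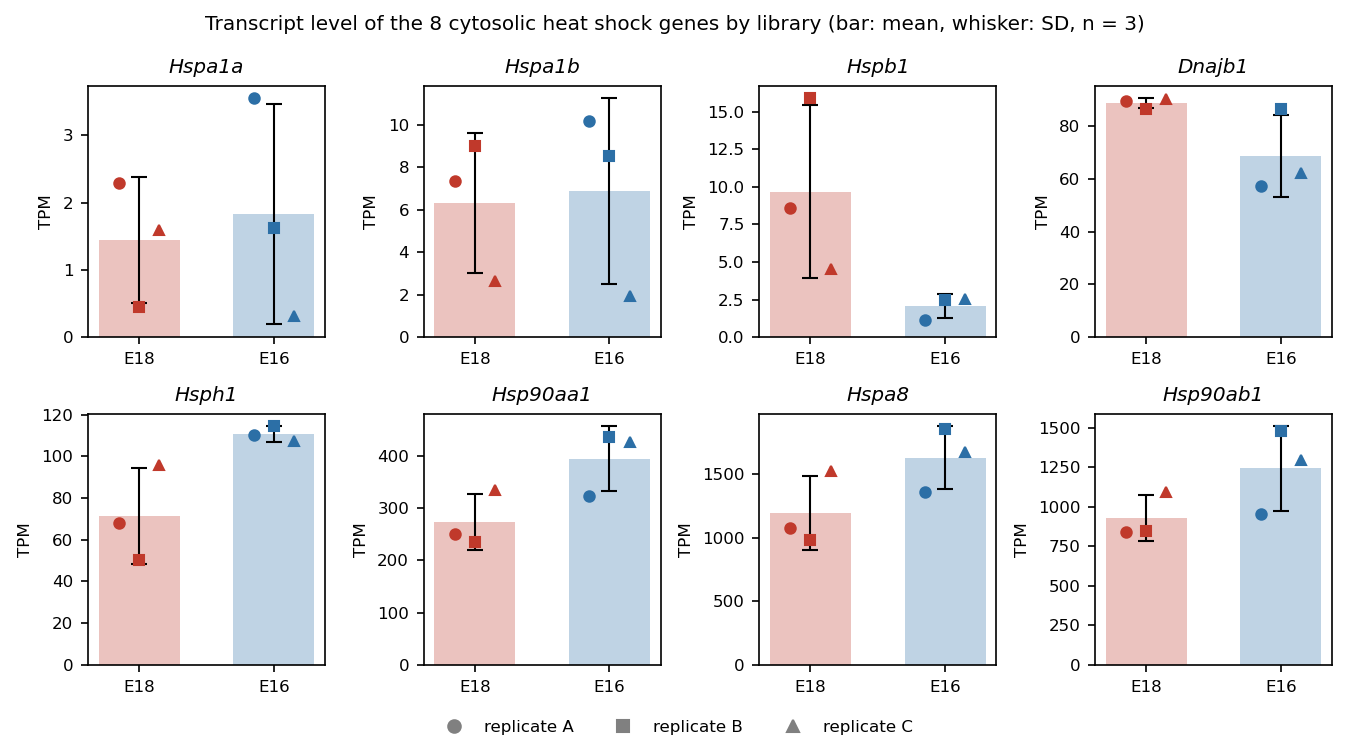
Level of each member in every library, in TPM, with a separate panel and linear axis for each member. E18 points lie left of E16 points, with bars up to the mean of each day and whiskers for the SD. Levels span from under 1 TPM for Hspa1a to 1855 TPM for Hspa8, and the days separate for Hsph1, Hspb1 and, narrowly, Dnajb1.

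At E18 the order of mean levels was Hspa8, Hsp90ab1, Hsp90aa1, Dnajb1, Hsph1, Hspb1, Hspa1b and Hspa1a. At E16 it was Hspa8, Hsp90ab1, Hsp90aa1, Hsph1, Dnajb1, Hspa1b, Hspb1 and Hspa1a. Within a day the TPM values of Hspa8 and Hsp90ab1 overlapped on both days, although Hspa8 was above Hsp90ab1 in all 6 libraries. Dnajb1 and Hsph1 overlapped at E18 and not at E16. Hspb1 and Hspa1b overlapped on both days, and Hspb1 and Hspa1a overlapped at E16. The order of Dnajb1 and Hsph1 depends on the length used. TPM steps matched the merged exons of a gene, 7266 bases for Hsph1, whereas its coding transcript has 3802 bases. Rescaled to coding transcript length, Hsph1 averaged 136 at E18 and 211 at E16, above Dnajb1 at 94.8 at E18 and 73.5 at E16 on the same scale. The overlap of Hspa8 and Hsp90ab1 depends on length as well, with 4301 merged and 2394 coding bases for Hspa8. On the coding scale Hspa8 averaged 2148 at E18 and 2932 at E16, and Hsp90ab1 1104.5 at E18 and 1482 at E16.

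Hspa8 (chr9:40800984-40810087, plus strand, GRCm38) encodes Hsc70, the Hsp70 made in all cells, which folds new proteins and strips clathrin from vesicles. Its level was 1079, 982 and 1526 TPM in E18 libraries A, B and C and 1361, 1855 and 1679 TPM in E16 libraries A, B and C. The days overlapped in TPM because E18 C lay above E16 A. Means were 1196 ± 290 TPM at E18 and 1632 ± 250 TPM at E16 (SD, n = 3 each), a log2 difference of -0.46 ± 0.27 (SE; limma adjusted p = 0.394). The annotation places Snord14c, Snord14d and Snord14e on the same strand within it, and they share 6.09% of its merged exon length. In E16 A a single predicted gene made up 33.9% of TPM, against 22.6% in E18 C and 19.8% to 26.0% in the other libraries.

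Hsp90ab1 (chr17:45567775-45573271, minus strand), the steadily expressed Hsp90, was at 842, 845 and 1097 TPM in E18 libraries A, B and C and at 953, 1484 and 1299 TPM in E16 libraries A, B and C. E18 C again exceeded E16 A, so the days overlapped in TPM. The log2 difference was -0.41 ± 0.25 (SE; limma adjusted p = 0.414), with a 95% interval of -0.99 to 0.17 that includes no change. With a hepatocyte score as covariate the sign of Hspa8 and Hsp90ab1 turned, to 0.0060 and 0.16 on the log2 scale. Their 95% intervals in that fit were -1.38 to 1.39 and -1.05 to 1.37. Hepatocyte and erythroid sums did not overlap between the days, so fits with either score tell score and day apart poorly. The pair made up 82.4% ± 0.698 of the summed TPM of the 8 members at E18 and 83.0% ± 0.833 at E16 (SD, n = 3 each).

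Hsp90aa1 (chr12:110690605-110702728, minus strand) encodes the Hsp90 that heat induces further and that is also abundant at rest. It had 251, 235 and 336 TPM in E18 libraries A, B and C and 323, 436 and 427 TPM in E16 libraries A, B and C, with overlap between E18 C and E16 A. The log2 difference was -0.53 ± 0.20 (SE; limma adjusted p = 0.182), and its interval ran from -0.998 to -0.067. It was -0.16 with a hepatocyte score as covariate and -0.25 with an erythroid score. Rescaled without the predicted gene, mitochondrial and small RNA genes, it was -0.60 (limma adjusted p = 0.0707). Hsp90aa1 stayed near a fixed ratio to Hsp90ab1, at 0.298, 0.278 and 0.306 in E18 libraries and 0.339, 0.294 and 0.329 in E16 libraries. Coding sequences of the Hsp90 pair were 75.3% identical and shared no stretch of 50 bases.

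Hsph1 (chr5:149614287-149636376, minus strand) encodes an Hsp110, the exchange factor that resets Hsp70. Its level was 68.01, 50.1 and 95.9 TPM in E18 libraries A, B and C and 110, 115 and 107 TPM in E16 libraries A, B and C. All E18 values lay below all E16 values, and the E16 libraries were close together while the E18 libraries were spread. The mean at E18 was 0.645 times that at E16, a log2 difference of -0.67 ± 0.23 (SE; limma adjusted p = 0.144). Without E18 C the difference was -0.91 and passed the test (limma adjusted p = 0.0474), the 1 member call among the fits that left out a library. Without E18 B it was -0.45 (limma adjusted p = 0.314). Its ratio to Hspa8 overlapped between the days, at 0.0510 to 0.0630 in E18 libraries and 0.0618 to 0.0810 in E16 libraries. With an erythroid score as covariate the sign turned, to 0.14.

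**Figure D3:**
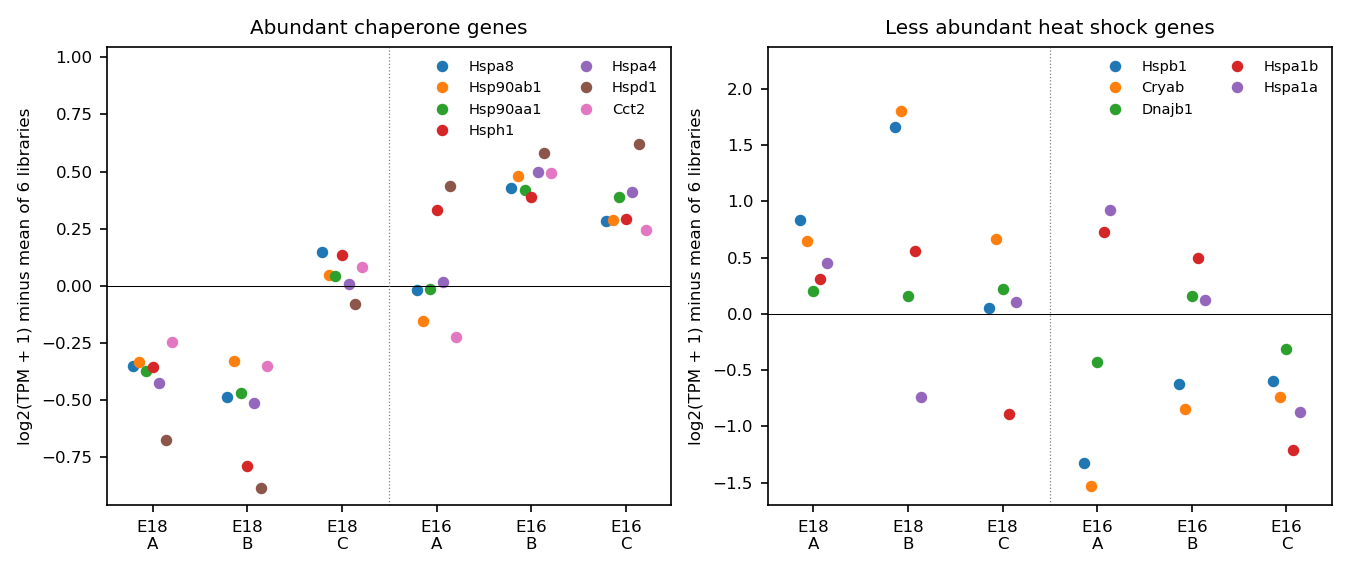
Level of heat shock and chaperone genes in each library as the deviation of log2(TPM + 1) from the gene's mean over 6 libraries, with E18 libraries left of E16 libraries. Abundant genes (left panel) sit lowest in E18 A and E18 B, with E18 C near the E16 A level for several of them; Hspb1 and Cryab (right panel) are highest in E18 B, and Hspa1a and Hspa1b follow neither day.

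Hspa1a (chr17:34969190-34972156, minus strand) and Hspa1b (chr17:34956436-34959238, minus strand) are neighbouring genes for the strictly inducible Hsp70. Hspa1b was at 7.36, 8.98 and 2.65 TPM in E18 libraries A, B and C and at 10.2, 8.54 and 1.93 TPM in E16 libraries A, B and C. Hspa1a was at 2.29, 0.442 and 1.59 TPM in E18 libraries A, B and C and at 3.55, 1.62 and 0.312 TPM in E16 libraries A, B and C. Low and high libraries occurred on both days for each gene, and the days overlapped. For Hspa1b the C library was the lowest on both days. Log2 differences were -0.12 ± 0.55 for Hspa1a and -0.01 ± 0.61 for Hspa1b (SE; limma adjusted p = 0.937 and 0.995). Their 95% intervals, -1.40 to 1.17 and -1.45 to 1.42, leave room for large changes in either direction. With the letter as a replicate block, the Hspa1b interval was -0.80 to 0.77, though the labels do not say what the letters share. Hspa1a rested on few reads, 6 to 30 recovered reads in E18 libraries and 6 to 72 in E16 libraries.

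The Hspa1a and Hspa1b values cannot be read as fully separate measurements. Their longest open reading frames were 99.4% identical, with 1918 matching and 8 mismatched bases, and 58.8% of the 50-base stretches of the Hspa1a transcript also occur in that of Hspa1b. How reads that fit both were counted is not given in the sources used here. Summed, the pair had 9.65, 9.42 and 4.23 TPM in E18 libraries A, B and C and 13.7, 10.2 and 2.24 TPM in E16 libraries A, B and C, again overlapping. The annotation also places Gm20481 on the opposite strand over 19.0% of the Hspa1a exon, and the strand setting of the counting is not given in the sources used here.

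Dnajb1 (chr8:83608193-83612653, plus strand) encodes the heat-inducible J-domain partner of Hsp70. Its level was 89.4, 86.5 and 90.2 TPM in E18 libraries A, B and C and 57.4, 86.4 and 62.3 TPM in E16 libraries A, B and C. The E18 values were close together and all lay above the E16 values, but E16 B came close to E18 B. The log2 difference was 0.39 ± 0.17 (SE; limma adjusted p = 0.254). It was 0.0017 with an erythroid score as covariate and 0.94 with a hepatocyte score. Relative to Hspa8 the days separated further, with Dnajb1 at 0.0828, 0.0881 and 0.0591 of the Hspa8 level in E18 libraries and 0.0421, 0.0466 and 0.0371 in E16 libraries.

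Hspb1 (chr5:135887919-135889563, plus strand) encodes a small heat shock protein that holds unfolding proteins without ATP and is abundant in muscle. It was at 8.57, 15.9 and 4.56 TPM in E18 libraries A, B and C and at 1.14, 2.48 and 2.55 TPM in E16 libraries A, B and C. All E18 values exceeded all E16 values, with E18 B highest. Means were 9.68 ± 5.76 TPM at E18 and 2.06 ± 0.796 TPM at E16 (SD, n = 3 each), a ratio of 4.71. The log2 difference was 1.70 ± 0.46 (SE; limma adjusted p = 0.0882), the largest in size among the members, and it was 0.99 with a pseudocount of 5 in place of 1 and 2.09 with 0.1. These values rest on 26 to 75 recovered reads in E18 libraries and 8 to 17 in E16 libraries. With an erythroid score as covariate the sign turned, to -0.23. The smooth muscle and fibroblast sums given above were also higher in every E18 library, and E18 B was the highest for both.

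**Figure D4:**
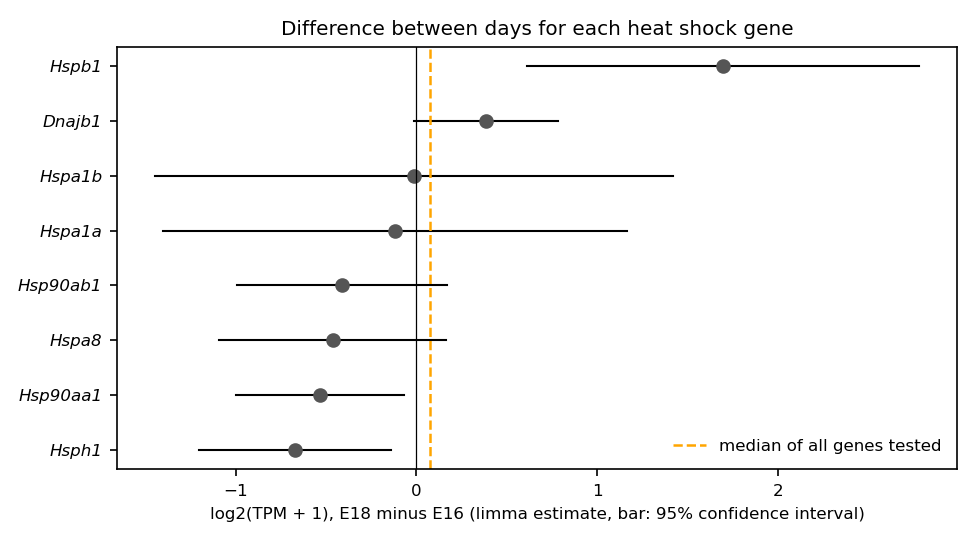
Log2 difference, E18 minus E16, of each member with its 95% interval from limma, on log2(TPM + 1). Intervals for Hspb1, Hsph1 and Hsp90aa1 exclude 0 before adjustment for 17824 genes, and after adjustment no member was called.

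Set against each other, inducible and constitutive members kept nearly the same share of the summed TPM. The 6 inducible genes made up 17.6% ± 0.698 at E18 and 17.0% ± 0.833 at E16 (SD, n = 3 each), a share led by Hsp90aa1. On the mean log2(TPM + 1) scale, where each gene counts equally, inducible minus constitutive was -5.13, -5.18 and -5.80 in E18 libraries A, B and C and -5.53, -5.94 and -6.32 in E16 libraries A, B and C. The days overlapped, with E18 C below E16 A. Means were -5.37 ± 0.38 at E18 and -5.93 ± 0.40 at E16 (SD, n = 3 each). Without Hspb1 they were -5.09 at E18 and -5.34 at E16. The difference of the means, 0.56, became -0.0078 with an erythroid score as covariate and 0.977 with library weights. Score and day are poorly told apart in the erythroid fit. The median log2 difference was -0.07 over the 6 inducible members and -0.44 over the 2 constitutive members.

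The wider chaperone network was counted in 9 classes of genes and the textbook Hsf1 targets, 106 genes of which 99 were tested. Of the 99, limma called 1, Cryab, and voom on recovered reads called 11. Over all genes tested, limma called 618 of 17824 and voom 1465 of 17818. The values of the days did not overlap for 26.3% of the 99, close to the 26.5% of all genes. Differences were negative for 62 and positive for 37, with a median of -0.12. Of 29 network genes with a mean of at least 100 TPM, 26 had a negative difference, with a median of -0.35 and 0 called. Over the 1057 genes of that level in the whole table, 620 had a negative difference, with a median of -0.07. E18 C was the highest E18 library for 44 of the 62 genes with a negative difference and for 4005 of 7673 such genes in the whole table. Hspa12a, Dnajb5, Hspb7 and Unc45b, named because of it, passed the filter through their E18 values alone.

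**Figure D5:**
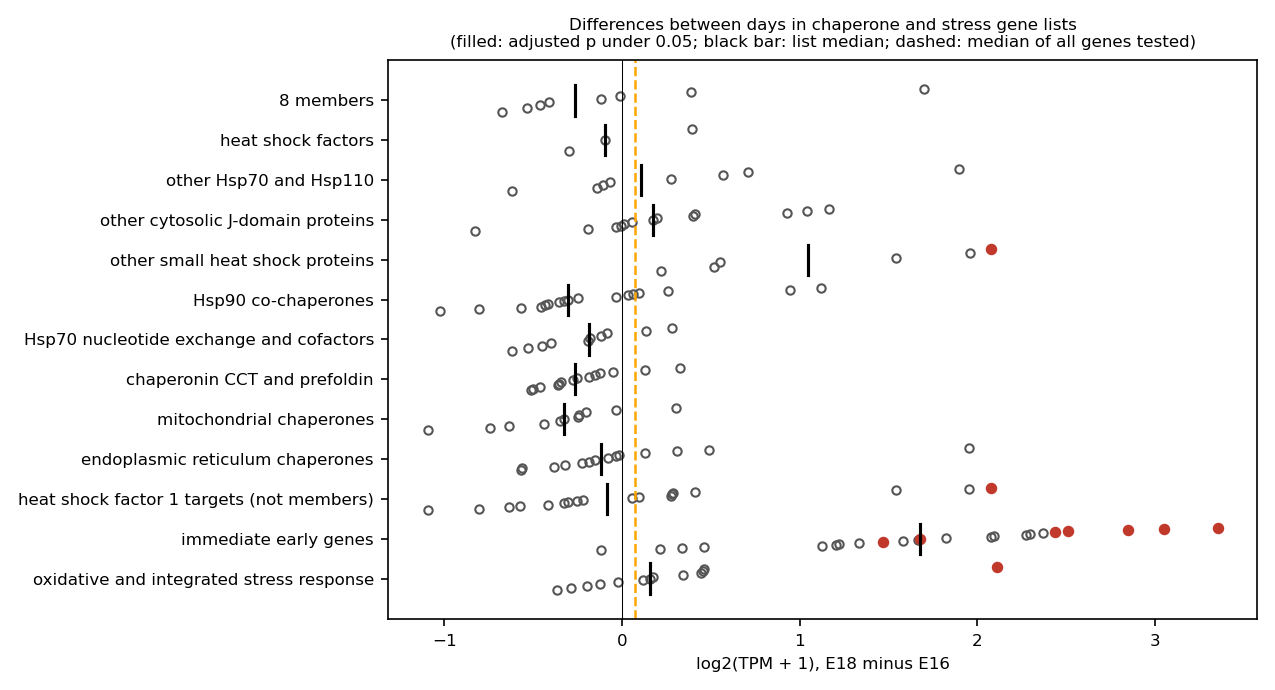
Log2 difference, E18 minus E16, of every tested gene in each list, with the list median as a bar. Small heat shock proteins lie to the positive side, with Cryab called, chaperonin and mitochondrial chaperones lie mostly to the negative side, and immediate early genes lie furthest to the positive side.

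Among the regulators and direct partners of the members, 0 genes were called. Hsf1, the main heat shock transcription factor, had 24.0, 26.7 and 28.4 TPM in E18 libraries A, B and C and 29.7, 26.4 and 28.4 TPM in E16 libraries A, B and C. The 13 other J-domain genes had a median of 0.17 and the 8 other Hsp70 and Hsp110 genes a median of 0.11, with an unadjusted limma p under 0.05 for 3 higher and 1 lower J-domain genes and for 2 higher and 1 lower Hsp70 and Hsp110 genes. Over all genes tested, that share was 20.9%, with 2713 genes higher and 1007 lower. Hspa4, an Hsp110 relative, was at 84.5, 79.6 and 115 TPM in E18 libraries A, B and C and 115, 161 and 152 TPM in E16 libraries A, B and C, a log2 difference of -0.62 that was not called. The 17 Hsp90 co-chaperones had a median of -0.30, with 2 higher and 3 lower at unadjusted p under 0.05. The higher genes in these 3 lists include Dnajb5, Hspa12a and Unc45b, which passed the filter through E18 alone. Ptges3, the co-chaperone p23, averaged 277 ± 69.7 TPM at E18 and 372 ± 81.4 TPM at E16, and Stip1, which links Hsp70 to Hsp90, averaged 195 ± 41.9 TPM at E18 and 242 ± 30.02 TPM at E16 (SD, n = 3 each). Fkbp4, an immunophilin that binds Hsp90 with steroid receptors, averaged 123 ± 44.1 TPM at E18 and 210 ± 41.2 TPM at E16 (SD, n = 3 each). The 10 Hsp70 cofactors had a median of -0.18, with 0 higher and 2 lower at unadjusted p under 0.05, and Bag6, a chaperone of proteins awaiting membrane insertion, was at 162 ± 3.65 TPM at E18 and 172 ± 18.8 TPM at E16.

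Among the cytosolic chaperonin and the chaperones of mitochondria and endoplasmic reticulum, limma called 0 genes. At unadjusted p under 0.05 were 0 of 14 chaperonin and prefoldin genes, 4 of 11 mitochondrial chaperones, all lower, and 5 of 14 endoplasmic reticulum chaperones, 4 of them lower, against the 20.9% of all genes tested. All 8 subunits of the chaperonin CCT had a negative difference, between -0.51 and -0.18, and for none did the days separate. Hspd1, the mitochondrial Hsp60, was at 270, 234 and 409 TPM in E18 libraries A, B and C and 585, 648 and 665 TPM in E16 libraries A, B and C. Its days did not overlap, and the log2 difference of -1.09 missed the call narrowly (limma adjusted p = 0.05001). Hspa9, the mitochondrial Hsp70, averaged 319 ± 116 TPM at E18 and 520 ± 115 TPM at E16 (SD, n = 3 each). In the endoplasmic reticulum, Calr and Canx, lectin chaperones of glycoproteins, were lower at E18 in every library. For Calr the margin was narrow, 752 TPM in E18 A against 756 TPM in E16 A (limma adjusted p = 0.671). Hspa5, the Hsp70 of that compartment, overlapped at 253 ± 14.1 TPM at E18 and 259 ± 18.2 TPM at E16.

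Of 9 other small heat shock proteins 6 were tested, Hspb7 through its E18 values alone, and 1 was called. Cryab, alpha-B crystallin of muscle and lens, rose to 9.80, 23.1 and 9.91 TPM in E18 libraries A, B and C, against 1.39, 2.85 and 3.13 TPM in E16 libraries A, B and C. Its log2 difference was 2.07 (limma adjusted p = 0.0452). Leaving out any 1 of the 6 libraries ended this call, with adjusted p between 0.0539 and 0.128. Hspb7 and Hspb8, named after their values were seen, were also higher in every E18 library, at 1.18 to 6.72 TPM and 2.69 to 3.93 TPM at E18, against 0 to 0.279 TPM and 0.0751 to 1.16 TPM at E16. Cryab is also a textbook Hsf1 target, and over the 18 such targets outside the members the median was -0.08.

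Stress lists outside the chaperones are given for context. Of 23 immediate early genes, which cells transcribe rapidly after many stimuli, 7 were called higher at E18 (Nr4a1, Klf4, Klf2, Atf3, Rhob, Btg2 and Ier3), 18 had higher non-overlapping values, and the median log2 difference was 1.68. Over all 17824 genes tested, 549 were called higher, 3287 had higher non-overlapping values, and the median was 0.07. Nr4a1, an immediate early nuclear receptor, was at 82.1, 179 and 42.0 TPM in E18 libraries A, B and C and 6.51, 6.91 and 9.15 TPM in E16 libraries A, B and C. Each of these 7 calls was lost in 5 of the 6 fits that left out 1 library and held without E18 C. Of 13 oxidative and integrated stress genes 1 was called, Ddit4, an inhibitor of mTOR signalling, at 11.3 ± 3.54 TPM at E18 and 1.83 ± 0.796 TPM at E16 (SD, n = 3 each), and the median was 0.16. Its call was lost in each of the 6 fits. For Hspa1a and Hspa1b the days overlapped, with intervals that leave room for large changes in either direction. A link between these lists and the members was not tested.

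The genes closest in profile differed by member. Likeness was the root mean square difference of centred log2(TPM + 1) over 6 libraries, among genes with a mean of at least 10 TPM. Closest to Hspa8 were Sfxn1, Umps, Xpot, Utp18 and Dmap1 (0.0351 to 0.0496), and closest to Hsp90ab1 were Arl6ip4, Trim27, Lsm12, Cct2 and Alg10b (0.0296 to 0.0525). Hsph1 was nearest to Ugcg, Wdr12, Nop2, Polr2e and Pik3cd (0.0454 to 0.0961). Hspb1 was nearest to Amotl2, Bmp1, Pkdcc, Itgb5 and Csrp2 (0.0957 to 0.151). Their values were all higher at E18, which follows from choosing genes by likeness to Hspb1. Hspa1a had no close neighbour among the genes compared, its nearest 5 being Actl10, Tagap1, Rad54b, Crcp and Miip (0.274 to 0.398). Its own mean of 1.63 TPM rests on few reads and lies below the level asked of those genes. Members, Hspa1b among them, were not compared.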

How the data were processed

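RNA of 6 libraries of sorted eYFP-positive fetal liver cells was analysed, 3 of E18 and 3 of E16, grouped by the age in the labels. The authors deposited TPM for 54532 genes in 1 table. The submitters' processing notes name mm10, HTSeq 0.5.4p3, HISAT2 2.1.0, FastQC 0.11.7 and Bowtie, with no role or order, and the labels' protocols name a stranded total RNA kit. Not given in the sources used here are the annotation release, the strand setting and the treatment of reads that fit several places.

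Genes were named by Ensembl identifier (54409 matched) and placed with GENCODE M21 on GRCm38, the assembly of mm10. TPM multiplied by merged exon length came to a whole number of reads, to within 0.05, for 96.8% to 97.1% of values above 0. Recovered totals were 14587554, 15613419 and 18281953 reads for E18 A, B and C and 22626880, 21580363 and 21130205 for E16 A, B and C, so 1 kb at 1 TPM rests on 4.41 to 6.83 reads.

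Testing covered genes that reached 1 TPM in 3 or more of the 6 libraries. Values of log2(TPM + 1) were fitted with limma 3.58.1 under R 4.3.3, moderated by empirical Bayes with a mean-variance trend, 2-sided p-values and Benjamini-Hochberg adjustment. The fit was tested on simulated data. Promoter windows were RefSeq sequences on GRCm38.p6, searched on both strands, open reading frames were aligned with Biopython 1.88, and figures were drawn with Matplotlib 3.10.9.

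The members and lists were chosen with earlier results of these data known. Genes were named by rule: all members, the called genes and up to 3 most abundant tested genes of each list, and the nearest 5 profiles of 5 members, with predicted genes not named. Named outside the rule, after their values were seen, were Hspb7, Hspb8, Hspa12a, Dnajb5 and Unc45b, and cell-type markers. Not every gene the rule takes is described. Alternatives were other pseudocounts, filters and scalings, no trend, library weights, cell-type scores as covariates, the letter as a block, voom on recovered reads, Hspa1a and Hspa1b summed, and leaving out each library. Leaving out both B libraries, and the fitted settings of inducible minus constitutive, were added after the data were seen.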

Additional observations from a re-analysis of the deposited data

How the results depend on the processing

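Over all genes, 618 calls became 347 with a pseudocount of 5, 0 with no filter on low values, 363 with a mean TPM of at least 5, 399 with quantile normalization (314 higher and 85 lower), 4316 with library weights, 0 with a hepatocyte or an erythroid score as covariate, 0 with the letter as a replicate block, 1465 with voom and 0 without both B libraries (added after the data were seen). Leaving out 1 library gave 0 to 664. Of the members, library weights called 6, Dnajb1 and Hspb1 higher and Hsph1, Hsp90aa1, Hspa8 and Hsp90ab1 lower at E18, with weights of 3.62 for E18 A and 3.76 for E16 C against 0.484 to 0.605 for the others. Leaving out 1 library called 0 to 1 members. Of the network genes, 1 call became 0 with pseudocounts of 0.1 and 5, no filter, a mean of at least 5, either score, the block or both B libraries left out, 2 with either rescaling or no trend, 3 with at least 1 TPM in all 6 libraries or median-of-ratios scaling, 11 with voom and 33 with library weights, and leaving out 1 library gave 0 to 5. With quantile normalization the count stayed at 1, but Cryab lost its call (limma adjusted p = 0.0634) and the called gene was lower at E18. The cause was not tested.

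Some signs turned. Hspa1a was 0.84 with library weights, 0.56 with the erythroid score, 0.041 summed with Hspa1b and 0.26 without both B libraries, and -0.58 to 0.31 when 1 library was left out. Hspa1b was 0.015 with a pseudocount of 0.1, 0.997 with library weights, 0.49 with the hepatocyte score, and -0.62 to 0.43 when 1 library was left out. The erythroid score gave -0.23 for Hspb1 and 0.14 for Hsph1, and the hepatocyte score 0.0060 for Hspa8 and 0.16 for Hsp90ab1. Intervals in those fits were wide, and score and day are poorly told apart in them. Dnajb1 and Hsp90aa1 kept their sign under every alternative run, though Dnajb1 came to 0.0017 with the erythroid score and Hsp90aa1 to -0.16 with the hepatocyte score. Inducible minus constitutive, 0.56 as reported, was -0.0078 with the erythroid score and 0.977 with library weights. It moved by less than the spread between libraries under the 21 other alternatives run for it. Several of the 21 could not move it or could hardly do so. Dropping the filter or the trend, or adding the block, leaves the fitted difference as it was, and scalings of whole libraries largely cancel. Of these alternatives, those that act in the fit and both B libraries left out were added after the data were seen. The median of all genes was 0.07 as reported, -0.02 with median-of-ratios scaling and -0.08 with quantile normalization. Deviations of libraries with the same letter correlated at 0.102 (A), -0.139 (B) and -0.117 (C), so the letters were not taken as pairs, and not every library correlated best with its own letter. Depth limits Hspa1a, Hspa1b and Hspb1 most.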
